A study of Mus musculus with 12 samples.

Results

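The oxidative folding genes Ero1l, Ero1lb, Qsox1, Prdx4, P4hb, Pdia3, Pdia4, Pdia6, Txndc5 and Erp44 were followed through RNA-seq counts of mouse mammary tumourspheres, and the question was whether the other 9 genes moved with Ero1l. They were chosen by name as endoplasmic reticulum (ER) thiol oxidases, disulphide isomerases and their direct partners, with earlier results of these data known. All 10 had an identifier among the 18278 genes of the files and passed the filter on low counts. The 12 libraries formed 4 groups of 3: the parental lines LM1 and LM9, and from each its KO line, LM1 Nfib KO or LM9 Nfib KO. Both parental lines were established from metastases in the lungs of NOD/SCID mice that had carried tumours of mouse mammary cancer cells. Those cells came from a tumour driven by a transgene of mutant PIK3CA under the CAG promoter and had been mutagenised with the piggyBac transposon. In the KO lines Nfib, which encodes a transcription factor, was cut by CRISPR-Cas9 with guides meant to shift the reading frame, and single-cell clones were pooled, so that each KO line stands for a few clones. All 4 lines were grown as tumourspheres, clusters that form in non-adherent plates, for 6 days from 10000 cells per mL in serum-free medium with B27 and with EGF and basic FGF at 20 ng/mL each.

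Secreted and membrane proteins acquire their disulphide bonds in the ER. Protein disulphide isomerases (PDIs) pass their own disulphide to a client protein, and the Ero1 oxidases then re-oxidise the PDI with oxygen and release hydrogen peroxide. Prdx4 uses that peroxide to oxidise further PDIs, Erp44 retains Ero1 and unassembled clients in the early secretory pathway, and Qsox1 forms disulphides directly, mainly in the Golgi and outside the cell.

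Library totals ran from 29249075 to 37162594 counts, so that 3 counts stood for 0.0807 to 0.103 CPM, the unit in which every library has the same total. All levels below are CPM further scaled by TMM factors, which align the bulk of genes between libraries. Nfib itself lay between 196 and 241 CPM in LM1 and between 228 and 239 CPM in LM1 Nfib KO, and between 120 and 210 CPM in LM9 and 227 and 247 CPM in LM9 Nfib KO. With library totals alone it lay between 185 and 228 CPM in LM1 and between 253 and 264 CPM in LM1 Nfib KO, so whether these libraries overlapped depended on the scaling. A shifted reading frame need not lower the mRNA, so these values do not check the edit, and every direction below rests on the labels. The mammary epithelial markers, of which 6 of 7 were in the files, summed to 737 to 1328 CPM in the parental libraries and to 7.10 to 7.86 CPM in the libraries labelled KO, where Krt8, Krt18 and Cdh1 had 0 to 7 reads. Nearly all of the KO sum was Krt14, which went the other way, from 0 to 0.322 CPM in the parental libraries to 6.16 to 6.90 CPM. The fibroblast markers (5 of 6 in the files) summed to 174 to 309 CPM in the parental and 1172 to 1265 CPM in the KO libraries. Col1a1 carried much of that difference, with 1.77 to 6.31 CPM in the parental and 868 to 979 CPM in the KO libraries, whereas Dcn had 15.1 to 94.8 and 11.2 to 12.5 CPM, and Col1a2 and Lum were under 1 CPM in every library. The endothelial markers (2 of 4) summed to 0.169 to 1.33 CPM and 68.2 to 75.1 CPM, nearly all of it Cdh5, while Pecam1 had 5 to 33 reads in every library. Of 5 leukocyte markers Cd68 was in the files, at 450 to 554 CPM and 95.7 to 104 CPM. These markers moved with every comparison of KO with parental libraries below, their part in the results was not tested, and in bulk RNA fewer cells with a transcript cannot be told apart from less of it per cell.

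LM9 replicate 1 stood apart from its group. Over the 18176 genes tested its log2 CPM correlated with those of the LM1 libraries at r = 0.992, and with LM9 replicates 2 and 3 at r = 0.964 and 0.966, as a description across genes of libraries that share a protocol. The KO libraries correlated at r = 0.993 to 0.994 both within a line and between the lines, and with the parental libraries at r = 0.688 to 0.702. By this measure the 2 KO groups were as alike as the libraries within each. Agreement between the lines is therefore not read as independent replication, and SEs averaged over the lines do not allow for this likeness. In LM9 replicate 1 all 10 oxidative folding genes were nearer to the LM1 mean than to LM9 replicates 2 and 3. The LM9 changes of the 10 genes are therefore given with and without this library, while LM9 group means and levels include it unless said otherwise.

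Differences are log2 fold changes from limma-voom fitted to all 12 libraries, with standard errors (SE), and a gene was called at an adjusted p under 0.05 (Benjamini-Hochberg over all genes tested). Nothing in the labels says that replicates came from separate cultures, so p-values measure the spread between these samples. A single gene compared 3 against 3 by the exact permutation test cannot fall below p = 0.1. Leaving out Ero1l, all 9 genes reached that value in LM1 and all but P4hb in LM9, but the libraries also did not overlap for 89.1% of all genes in LM1 and 80.5% in LM9, so nothing particular to these genes is read from it.

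In LM1 Nfib KO against LM1, 9 of the 10 genes were lower and 1, P4hb, was higher. Ero1l is counted among them as a description only, since the study had picked it partly from these libraries, and 8 of the other 9 genes were lower in each line. Over all genes 38.1% were called lower and 43.1% higher. In LM9 Nfib KO against LM9, 9 were lower and P4hb was not called, beside 38.0% of all genes lower and 44.3% higher. Without LM9 replicate 1 all 10 were lower, where 41.2% of all genes were lower and 47.7% higher. The median log2 change of the 10 genes was -1.40 in LM1 and -1.71 in LM9, against 0.08 and 0.13 for all genes. The direction was shared by these 9 genes, but its size was not, and it ran from 22.1-fold for Ero1l to 1.32-fold for Txndc5 in LM1.

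**Figure D1:**
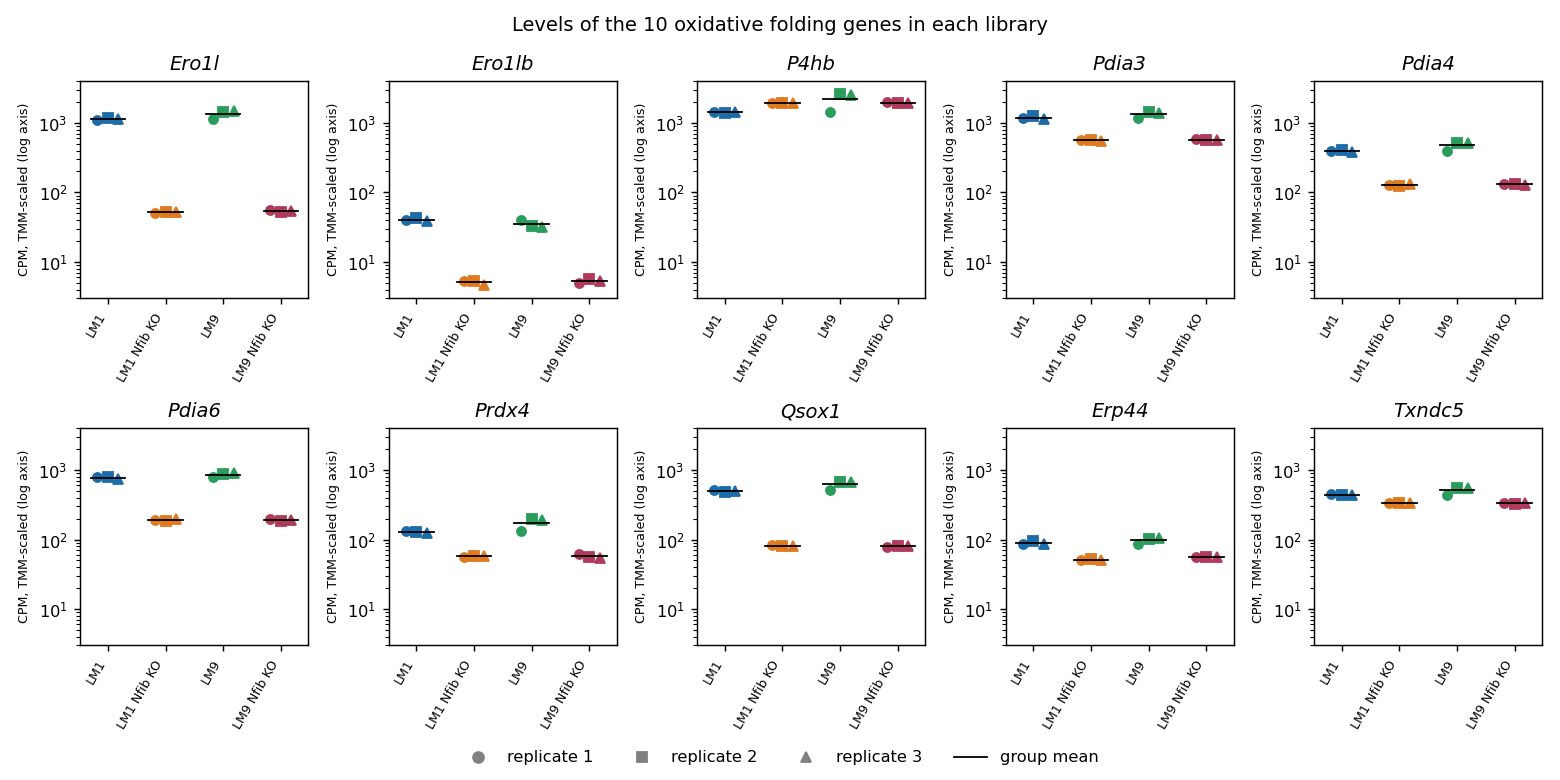
Level of each of the 10 genes in each library, in TMM-scaled CPM on a log axis, with the marker shape giving the replicate and the line the group mean. Both KO groups lie below both parental groups for all genes but P4hb, and LM9 replicate 1 (circle) sits at the LM1 level.

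Ero1l encodes Ero1 alpha, the widely expressed PDI oxidase (chromosome 14, 45283087 to 45318771, minus strand, mm10). The study picked Ero1l out partly from these libraries, so its own fall is given as a description with no test. It stood at 1089, 1192 and 1143 CPM in LM1 and at 50.4, 52.5 and 51.6 CPM in LM1 Nfib KO. It stood at 1121, 1426 and 1460 CPM in LM9 and at 56.4, 51.8 and 54.7 CPM in LM9 Nfib KO. The 6 KO libraries were alike and lay far below all 6 parental ones, with LM9 replicates 2 and 3 highest. The log2 fold change was -4.47 ± 0.09 (SE) in LM1 and -4.61 ± 0.09 in LM9, or -4.73 ± 0.04 without LM9 replicate 1. By mean level the order was LM9, LM1, LM9 Nfib KO and LM1 Nfib KO, in which neither LM9 and LM1 nor the 2 KO groups differed past the threshold (limma-voom adjusted p = 0.0824 and 1.00). Without LM9 replicate 1 the difference of LM1 from LM9 was called (-0.34 ± 0.03, adjusted p = 1.16e-07).

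Ero1lb encodes Ero1 beta, the paralogue best known from secretory tissues such as the endocrine pancreas (chromosome 13, 12565874 to 12611396, plus strand). It had 39.99, 42.5 and 39.4 CPM in LM1 and 5.26, 5.36 and 4.60 CPM in LM1 Nfib KO. In LM9 it had 40.3, 33.2 and 32.0 CPM, and in LM9 Nfib KO 5.06, 5.67 and 5.25 CPM. All KO libraries lay below all parental ones, and LM9 replicates 2 and 3 were the lowest parental libraries, the reverse of Ero1l. Ero1lb was 8.01-fold lower in LM1 Nfib KO (log2 SE 0.11, adjusted p = 5.70e-10) and its log2 fold change was -2.72 ± 0.11 in LM9 (adjusted p = 1.24e-09), or -2.61 ± 0.08 without LM9 replicate 1.

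Qsox1, the quiescin sulphydryl oxidase (chromosome 1, 155776029 to 155812889, minus strand), had 522, 477 and 502 CPM in LM1 and 82.1, 80.6 and 80.6 CPM in LM1 Nfib KO. It had 515, 679 and 678 CPM in LM9 against 77.9, 81.0 and 79.6 CPM in LM9 Nfib KO. The KO libraries did not overlap the parental ones in either line. It had a log2 fold change of -2.62 ± 0.10 in LM1 (adjusted p = 4.07e-10) and -2.96 ± 0.10 in LM9 (adjusted p = 1.61e-10), or -3.09 ± 0.04 without LM9 replicate 1. After Ero1l, the other 2 oxidases among the 10 genes thus had the deepest falls of these genes in both lines. This did not hold for all thiol oxidases. Qsox2, from the list of other thiol oxidation genes, was higher in the KO groups. Its mean was 12.3 CPM in LM1 and 26.6 CPM in LM1 Nfib KO, and 8.94 CPM in LM9 and 26.7 CPM in LM9 Nfib KO.

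The peroxidase Prdx4 (chromosome X, 155323918 to 155340754, minus strand) had 134, 128 and 125 CPM in LM1 and 56.0, 58.2 and 57.7 CPM in LM1 Nfib KO. It had 134, 195 and 189 CPM in LM9 and 61.2, 56.0 and 55.1 CPM in LM9 Nfib KO. Again the groups did not overlap, and LM9 replicates 2 and 3 were highest. Prdx4 had a log2 fold change of -1.17 ± 0.12 in LM1 (adjusted p = 3.24e-06) and -1.57 ± 0.12 in LM9 (adjusted p = 2.25e-07), or -1.74 ± 0.05 without LM9 replicate 1.

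Among the isomerases Pdia6 fell most. Pdia6 (chromosome 12, 17266545 to 17284770, plus strand), a PDI that also binds the sensor proteins of ER stress, had 786, 791 and 751 CPM in LM1 and 192, 187 and 195 CPM in LM1 Nfib KO. It had 785, 885 and 899 CPM in LM9 and 195, 188 and 193 CPM in LM9 Nfib KO. The groups did not overlap, and the log2 fold change was -2.02 ± 0.06 in LM1 (adjusted p = 8.07e-11) and -2.16 ± 0.06 in LM9 (adjusted p = 5.08e-11), or -2.21 ± 0.03 without LM9 replicate 1.

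Pdia4, which encodes ERp72 (chromosome 6, 47796141 to 47813430, minus strand), had 396, 406 and 378 CPM in LM1 and 127, 125 and 131 CPM in LM1 Nfib KO. It had 392.3, 515 and 513 CPM in LM9 and 132, 131 and 130 CPM in LM9 Nfib KO. The KO libraries were at about the same level in both lines and below all parental ones. Its log2 fold change was -1.63 ± 0.09 in LM1 (adjusted p = 1.52e-08) and -1.84 ± 0.09 in LM9 (adjusted p = 5.17e-09), or -1.97 ± 0.03 without LM9 replicate 1.

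Pdia3, or ERp57, works on glycoproteins with calnexin and calreticulin (chromosome 2, 121413775 to 121438687, plus strand). It had 1174, 1236 and 1141 CPM in LM1 and 562, 561 and 556 CPM in LM1 Nfib KO. It had 1194, 1414 and 1406 CPM in LM9 and 592, 560 and 564 CPM in LM9 Nfib KO. The groups did not overlap in either line, and the log2 fold change was -1.08 ± 0.07 in LM1 (adjusted p = 4.07e-08) and -1.22 ± 0.07 in LM9 (adjusted p = 1.42e-08), or -1.30 ± 0.03 without LM9 replicate 1.

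Txndc5, or ERp46, a PDI that is a preferred substrate of Prdx4 (chromosome 13, 38500079 to 38528824, minus strand), had 450, 437 and 435 CPM in LM1 and 331, 331 and 338 CPM in LM1 Nfib KO. It had 438, 545 and 560 CPM in LM9 and 336, 329 and 330 CPM in LM9 Nfib KO. The groups did not overlap, and with all libraries the change was the smallest of the 9 called lower, at -0.40 ± 0.08 in LM1 (adjusted p = 0.000655) and -0.62 ± 0.08 in LM9 (adjusted p = 1.90e-05). Without LM9 replicate 1 it was -0.73 ± 0.03 in LM9, where P4hb had the smallest. Its size depended on the scaling, since with library totals alone it was -0.18 in LM1 and -0.27 in LM9. Exons of Txndc5 overlapped those of Bmp6 by 224 bases and of Gm31834 by 311 bases on the opposite strand, and whether the counting used strand was not given in the sources used here, so reads of these stretches cannot be assigned. Catsper2 overlapped Pdia3 by 18 bases on the opposite strand and Mir704 overlapped Pdia4 by 14 bases on the same strand.

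Erp44, the retention factor (chromosome 4, 48193323 to 48279558, minus strand), had 87.0, 94.6 and 86.7 CPM in LM1 and 50.9, 52.7 and 50.6 CPM in LM1 Nfib KO. It had 87.6, 102 and 106 CPM in LM9 and 56.1, 55.7 and 55.9 CPM in LM9 Nfib KO. The KO libraries lay below the parental ones in both lines, with log2 fold changes of -0.80 ± 0.07 in LM1 (adjusted p = 1.18e-06) and -0.81 ± 0.07 in LM9 (adjusted p = 9.31e-07), or -0.89 ± 0.04 without LM9 replicate 1.

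P4hb, the archetypal PDI and the beta subunit of prolyl 4-hydroxylase, was the exception (chromosome 11, 120560298 to 120573253, minus strand). It had 1443, 1408 and 1415 CPM in LM1 and 1937, 1933 and 1949 CPM in LM1 Nfib KO. It had 1420, 2563 and 2558 CPM in LM9 and 1997, 1921 and 1929 CPM in LM9 Nfib KO. The KO libraries were above all LM1 libraries, whereas in LM9 they lay above replicate 1 and below replicates 2 and 3. The log2 fold change was 0.45 ± 0.18 in LM1 (adjusted p = 0.0348) and -0.11 ± 0.18 in LM9 (adjusted p = 0.568).

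The P4hb values turned on LM9 replicate 1, which also set the spread for LM1. Without it the change was 0.45 ± 0.02 in LM1 (adjusted p = 9.58e-13) and -0.39 ± 0.02 in LM9 (adjusted p = 2.25e-11). With it, leaving out any 1 LM1 or LM1 Nfib KO library took the LM1 call past the threshold, at adjusted p between 0.0648 and 0.0723. The LM9 direction also depended on the scaling, since with library totals alone the log2 fold change was 0.24 (adjusted p = 0.109), or 0.03 (adjusted p = 0.263) without LM9 replicate 1. The LM1 value stayed positive under all scalings tried. Library totals alone moved the median of all genes in the mean of both lines from 0.11 to 0.40, and the other 9 genes were lower under each scaling.

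**Figure D2:**
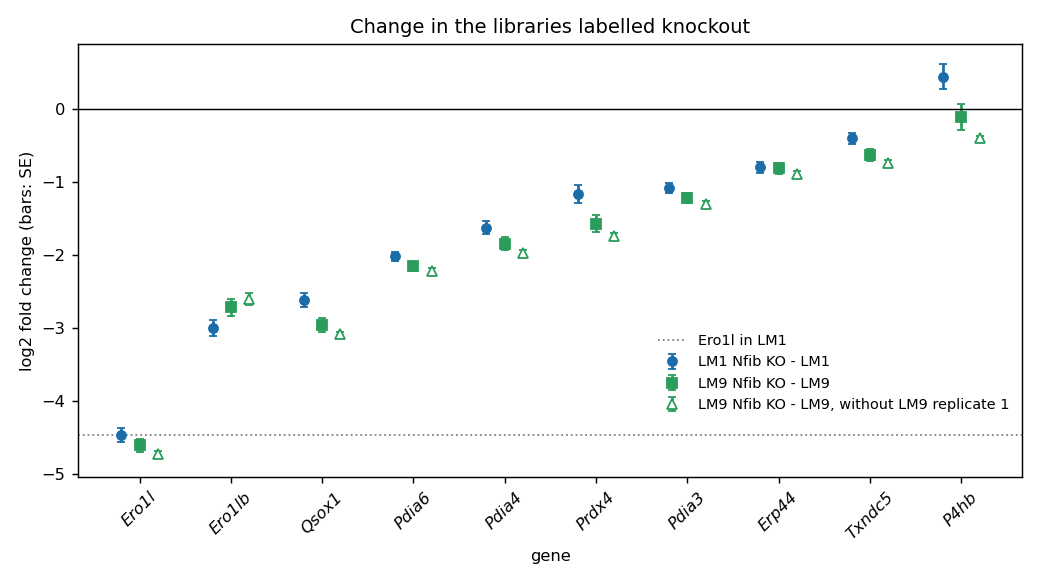
Log2 fold change of each gene in the libraries labelled KO against their parental line, with SE bars, for LM1 (circles), LM9 (squares) and LM9 without replicate 1 (open triangles); the dotted line marks Ero1l in LM1 at -4.47. The genes form a gradient from Ero1l up to P4hb, the 1 gene on both sides of 0.

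How far each gene followed Ero1l was read from its ratio to Ero1l within each library, which does not depend on the scaling. The study had picked Ero1l partly from these libraries, and 97.6% of all genes differed from it past the threshold by limma. The gaps are therefore given as a description, with no test of the 9 genes. Averaged over the lines, the log2 change lay above that of Ero1l by 1.68 ± 0.12 (SE) for Ero1lb and by 1.75 ± 0.05 for Qsox1. The gap was 2.45 ± 0.05 for Pdia6, 2.81 ± 0.04 for Pdia4, 3.17 ± 0.05 for Prdx4 and 3.39 ± 0.04 for Pdia3. It was 3.73 ± 0.05 for Erp44, 4.03 ± 0.04 for Txndc5 and 4.71 ± 0.08 for P4hb. In the averaged comparison itself 9 of the 10 genes were lower and P4hb was not called (0.17 ± 0.13, adjusted p = 0.223), beside 40.5% of all genes lower and 46.3% higher.

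By the likeness of the whole profile, taken as the root mean square difference of centred log2 CPM over the 12 libraries, the nearest genes to Ero1l among 10279 with a mean of at least 10 CPM were Plet1 (0.0691), H2-Q7 (0.0937), Itgb2 (0.1004), H2-Q6 (0.1004) and Mndal (0.101). H2-Q6 and H2-Q7 are near-identical class I genes whose reads can be split between them, so their values are uncertain. Ero1lb ranked 363rd at 0.873 and Qsox1 370th at 0.878, Pdia6 737th and Pdia4 1056th. Prdx4, Pdia3, Erp44, Txndc5 and P4hb came at ranks 1613, 2033, 2742, 3437 and 5501. This order is that of the gaps above, because both measures rest largely on the size of the KO change. It is therefore not a further reading of which genes followed Ero1l.

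Per kilobase of exon, which allows genes to be compared, the order of levels itself changed. The orders given hold for the length of the exon union. Coding lengths are unequal parts of it, such as 1392 of 5285 bases for Ero1l and 1515 of 3139 for Pdia3. In LM1 the means were 497 CPM per kb for P4hb, 377 for Pdia3, 216 for Ero1l, 207 for Pdia6 and 164 for Pdia4. Txndc5 followed at 98.1 CPM per kb, Prdx4 at 61.1, Qsox1 at 60.4, Erp44 at 26.2 and Ero1lb at 6.11. In LM1 Nfib KO P4hb stood at 678 CPM per kb and Pdia3 at 178, while Ero1l was at 9.75, near Qsox1 at 9.78 and below Pdia6 at 51.1. In LM1 Ero1l and Pdia6 did not differ beyond their spread, and in LM1 replicate 1 Pdia6 was the higher of the pair.

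Ero1l made up nearly all Ero1 transcripts in every library, and its share was lower in the KO libraries. Per length it was 97.3% ± 0.09 (s.d., n = 3) of Ero1l plus Ero1lb in LM1 and 92.8% ± 0.57 in LM1 Nfib KO, and 97.9% ± 0.59 in LM9 and 92.8% ± 0.69 in LM9 Nfib KO. The log2 ratio of Ero1l to Ero1lb differed by -1.46 in LM1 and by -1.89 in LM9, or -2.12 without LM9 replicate 1, which is given without a test because the fall of Ero1l enters it.

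The balance of oxidase to isomerase transcripts was lower in the KO libraries. Ero1l and Ero1lb together came to 15.7, 17.0 and 16.9 transcripts per 100 PDI transcripts (P4hb, Pdia3, Pdia4, Pdia6 and Txndc5, per length) in LM1 and to 1.00, 1.04 and 1.01 in LM1 Nfib KO. They came to 16.2, 14.3 and 14.6 in LM9 and to 1.07, 1.04 and 1.08 in LM9 Nfib KO. Every KO library thus had, by the length of the exon union, about 1 Ero1 transcript per 100 PDI transcripts, 16.3-fold fewer than LM1 and 14.2-fold fewer than LM9. The ratios themselves depend on the length used, since coding length is 1392 of 5285 bases for Ero1l and 1527 of 2861 for P4hb. Leaving out replicate 1 moved the log2 difference only from -3.82 to -3.77. This ratio rests largely on Ero1l, so it too is a description with no test.

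The PDI pool itself differed by much less, and by how much depended on the scaling. It summed to 1343 ± 26.7 CPM per kb (s.d., n = 3) in LM1 and 1035 ± 4.995 in LM1 Nfib KO, a log2 difference of -0.38, and to 1729 ± 330.5 in LM9 and 1043 ± 22.2 in LM9 Nfib KO, a difference of -0.71 (-0.88 without LM9 replicate 1). With library totals alone the differences were -0.15 in LM1 and -0.36 in LM9 (-0.46 without LM9 replicate 1). The groups did not overlap in either line under either scaling (exact two-sided permutation p = 0.1, the smallest that 3 against 3 allows). Its make-up shifted towards P4hb, a share that does not depend on the scaling. P4hb supplied 37.0% ± 0.82 of the pool in LM1 and 65.5% ± 0.07 in LM1 Nfib KO, and 43.4% ± 5.65 in LM9 and 65.3% ± 0.03 in LM9 Nfib KO, where LM9 replicates 2 and 3 stood at 46.7% and 46.6%. Pdia3 went from 28.1% to 17.2% in LM1, Pdia6 from 15.4% to 4.94% and Pdia4 from 12.2% to 5.14%, while Txndc5 held 7.30% and 7.17%. So P4hb, whose level was not lower in LM1 Nfib KO, supplied the larger part of a smaller pool in both KO groups.

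**Figure D3:**
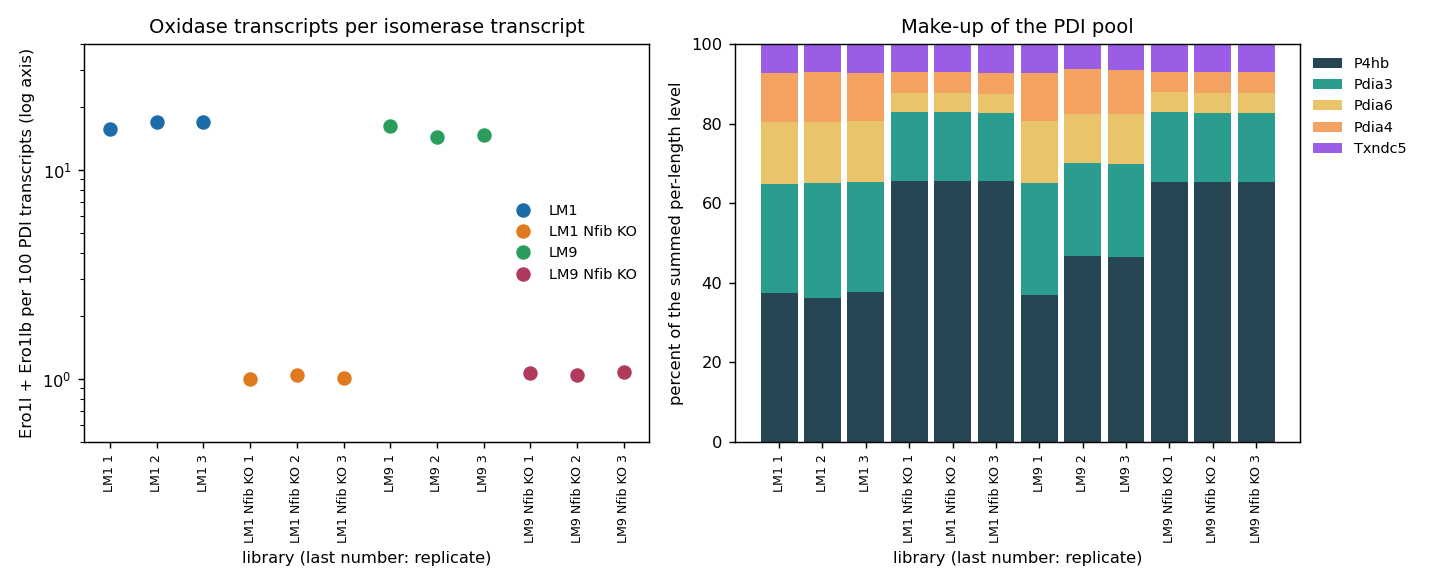
Left, Ero1l plus Ero1lb transcripts per 100 PDI transcripts in each library, per length, on a log axis, between 14.3 and 17.0 in the parental and 1.00 and 1.08 in the KO libraries. Right, the percentage of the summed PDI level per length that each isomerase supplied in each library, with P4hb near 65% in all 6 KO libraries.

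The 2 parental lines were compared to ask whether the machinery also differed where Nfib was not cut. With all libraries none of the 10 genes was called between LM1 and LM9 by limma-voom, of which 9 had an unadjusted p under 0.05, and 0.00550% of all genes were called (1 gene, with 8661 at an unadjusted p under 0.05, 1 called by edgeR and 5772 by DESeq2). Without LM9 replicate 1 all 10 were called, 9 of them lower in LM1, beside 32.4% of all genes lower and 33.4% higher. P4hb showed the largest of these differences at -0.85 ± 0.02 (adjusted p = 2.16e-14), followed by Prdx4 at -0.58 ± 0.04 and Qsox1 at -0.44 ± 0.03, with Ero1l at -0.34 ± 0.03. Ero1lb was the gene higher in LM1, by 0.32 ± 0.06 (adjusted p = 8.33e-05). Scaling mattered here. With library totals alone and without that library 7 of the 10 were called, 6 of them lower in LM1, beside 22.6% of all genes lower and 42.9% higher, and Pdia3 (-0.05), Erp44 (-0.02) and Pdia6 (0.00) were no longer called.

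The change on the KO label was not called as different between the lines for any of the 10 genes by limma-voom with all libraries, where 0% of all genes were called (4495 at an unadjusted p under 0.05, 1 by edgeR and 70 by DESeq2). P4hb had the largest difference, 0.56 ± 0.25 (LM1 minus LM9, adjusted p = 0.202). Without LM9 replicate 1, 9 of the 10 differed, beside 57.2% of all genes. P4hb then differed by 0.84 ± 0.03 (adjusted p = 2.06e-12), and Erp44 was the gene not called (0.10 ± 0.06, adjusted p = 0.178). With library totals alone and without that library 6 of the 10 differed, beside 57.3% of all genes, and Ero1l was no longer among them (0.06, adjusted p = 0.404). None of the 10 genes was called between LM1 Nfib KO and LM9 Nfib KO, with 0 also at an unadjusted p under 0.05, 0% of all genes called (178 at an unadjusted p under 0.05, and 0 by edgeR or DESeq2), and log2 differences between -0.12 for Erp44 and 0.03 for Qsox1.

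Other genes of the pathway were counted in the averaged comparison, in which 40.5% of all genes were lower and 46.3% higher. Of 11 further PDI family genes in the files (16 listed), 3 were lower, 6 higher and 2 not called, with a median of 0.25 against 0.11 for all genes. Tmx4, a membrane-bound PDI, went from 323 ± 18.6 CPM (means ± s.d., n = 3, for levels) in LM1 to 33.4 ± 1.68 in LM1 Nfib KO and from 258 ± 41.5 to 34.1 ± 1.35 in LM9 (a parental mean of 236 without replicate 1), an averaged log2 change of -3.09 ± 0.07 (SE, adjusted p = 5.63e-12). Txndc12 (ERp18) fell by 1.44 ± 0.04. Dnajc10 (ERdj5), which reduces disulphides in proteins bound for degradation, rose by 0.86 ± 0.11 (adjusted p = 1.95e-05), and Tmx3 rose by 0.38 ± 0.07, although it was not called in LM1 alone (0.16 ± 0.10, adjusted p = 0.156).

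Of 8 other genes of thiol oxidation and peroxide handling (9 listed), 4 were lower and 4 higher, beside the same 40.5% and 46.3% of all genes, with a median of 0.41. Vkorc1, the vitamin K epoxide reductase, fell by 1.45 ± 0.08 and its paralogue Vkorc1l1, which can also oxidise PDIs, rose by 1.36 ± 0.11. Exons of Vkorc1 overlapped those of Gm21974, which was also counted, by 401 of 840 bases on the same strand, so its values are uncertain. Vkorc1 stood at 22.6 ± 2.23 CPM in LM1 and 9.32 ± 0.29 in LM1 Nfib KO, and Vkorc1l1 at 30.2 ± 1.92 and 63.3 ± 1.68 CPM. Selenom, a selenoprotein of the ER, fell by 1.95 ± 0.09, and Sumf1, the sulphatase-activating enzyme, rose by 1.56 ± 0.10.

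Of 14 ER chaperone genes (15 listed), 11 were lower and 3 higher, again beside 40.5% and 46.3% of all genes, with a median of -1.06. Hspa5 (BiP), the main Hsp70 of the ER, went from 6360 ± 158 CPM in LM1 to 1343 ± 7.76 in LM1 Nfib KO and from 8261 ± 1590 to 1361 ± 51.4 in LM9 (a parental mean of 9178 without replicate 1), an averaged change of -2.41 ± 0.08 (adjusted p = 6.80e-11). Sil1, the nucleotide exchange factor of BiP, fell by 2.48 ± 0.09. Dnajb11 (ERdj3), a co-chaperone of BiP, rose by 1.74 ± 0.08, from 37.2 ± 1.15 to 139 ± 2.07 CPM in LM1, and Creld2 rose by 0.97 ± 0.06. With library totals alone the signs of Calr (0.14 in place of -0.15), Selenof (0.04 in place of -0.25) and Txndc11 (0.18 in place of -0.11) turned in the averaged comparison, and no other gene of these 3 lists turned. Without LM9 replicate 1 the averaged counts stayed at 11 lower and 3 higher for the chaperones and at 4 and 4 for thiol oxidation, and became 3 lower and 7 higher for the PDI family, beside 43.0% of all genes lower and 48.9% higher in that fit.

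Of the 4 partners of P4hb in the files, 3 were lower and 1 higher in the averaged comparison, beside 40.5% and 46.3% of all genes. P4ha1 and P4ha2, the catalytic subunits of the collagen prolyl hydroxylase that hold P4hb, changed by -2.84 ± 0.07 and -1.54 ± 0.04. P4ha1 stood at 883 ± 26.2 CPM in LM1 and 136 ± 0.90 in LM1 Nfib KO, and at 1090 ± 187 in LM9 (1198 without replicate 1) and 136 ± 3.35 in LM9 Nfib KO. P4ha3, another catalytic subunit, had 8 to 17 reads in LM1 and 0 to 10 in LM9, against 322 to 352 and 339 to 352 reads in the KO groups. Mttp, which pairs with P4hb in lipoprotein assembly, went from 14.5 ± 0.68 to 8.86 ± 0.58 CPM in LM1 and from 14.4 ± 0.22 to 8.76 ± 0.45 in LM9, and its exons overlapped those of Trmt10a by 457 bases on the opposite strand.

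**Figure D4:**
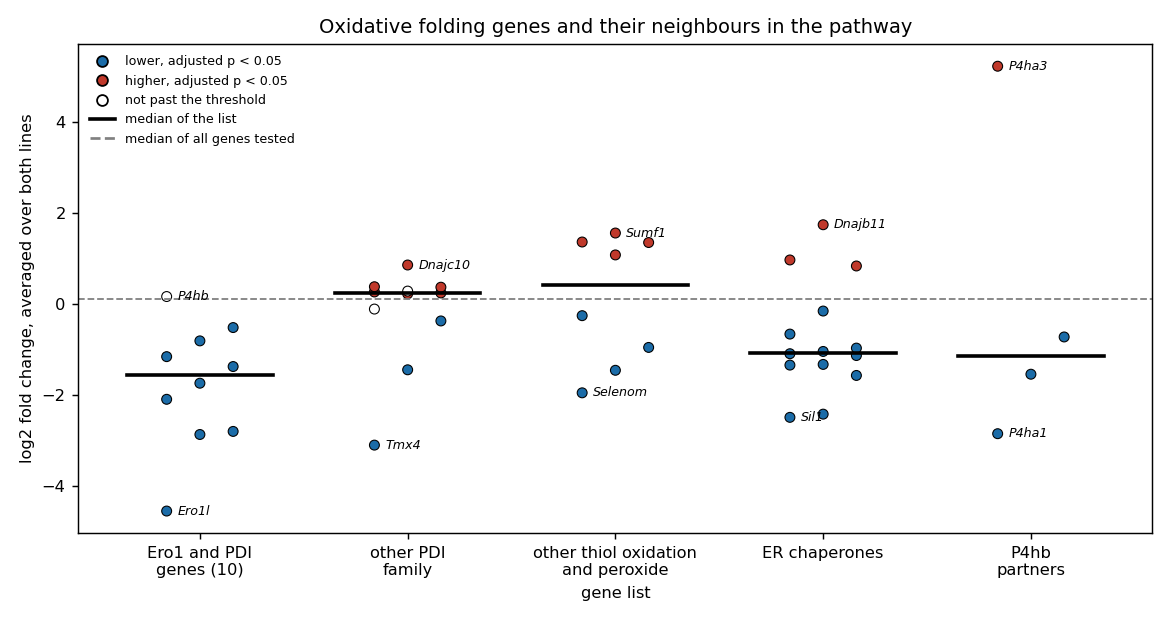
Log2 fold change averaged over both lines for the 10 oxidative folding genes and 4 related gene lists; filled points passed the threshold, bars are list medians and the dashed line is the median of all genes (0.11). The 10 genes and the chaperones lie mostly below the dashed line, while the other PDI family and thiol oxidation genes lie on both sides.

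The promoters were searched because 9 of the genes moved together in direction. In the 250 bases before each of 13 RefSeq start sites of the 10 genes (GRCm38.p6), both strands were read for the ER stress response element, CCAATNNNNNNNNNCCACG, which occurred in 2 of the 13 windows, those of Ero1lb and Pdia6, and in 0.113% of 32851 promoters. The hypoxia response core ACGTG occurred in 7 of 13 windows (for Ero1l, Erp44, P4hb, Pdia6, Prdx4 and Txndc5) and in 16.6% of all promoters. Its variant GCGTG occurred in 9 of 13 windows, for all genes but Pdia4 and Prdx4, and in 28.2% of promoters. The unfolded protein response element TGACGTGG, which contains ACGTG, occurred in 1 window, for Txndc5, and in 0.563% of promoters. The nuclear factor I palindrome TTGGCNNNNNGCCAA and the CHOP-ATF composite TGATGCAAT were not in these windows (0.0365% and 0.167% of promoters), and the single-sided nuclear factor I site TTGGCA was in those of Pdia4 and Txndc5 (12.3%). These are matches of letters, not sites of binding.

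The stretches upstream of Ero1lb and Pdia6 are printed for the stress element, that of P4hb as the gene not called lower with all libraries, and 30 bases around the ACGTG match of Ero1l for comparison. Capitals mark the stress element, ACGTG and GCGTG on either strand, and in the last line ACGTG alone. The Ero1lb stretch is chr13:12565633-12565873 (plus strand), that of Pdia6 chr12:17266339-17266544 (plus strand) and that of P4hb chr11:120573254-120573503 (minus strand), all from RefSeq on GRCm38.p6 and outside GENCODE M21 exons. The Ero1l match is at chr14:45318631-45318635 (minus strand), before the RefSeq start but within the first exon of the longer GENCODE model.
Ero1lb: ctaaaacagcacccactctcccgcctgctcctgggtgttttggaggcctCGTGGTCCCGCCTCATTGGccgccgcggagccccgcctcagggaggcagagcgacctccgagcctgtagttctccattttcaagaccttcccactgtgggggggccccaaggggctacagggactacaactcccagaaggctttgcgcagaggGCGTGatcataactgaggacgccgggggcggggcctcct
Pdia6: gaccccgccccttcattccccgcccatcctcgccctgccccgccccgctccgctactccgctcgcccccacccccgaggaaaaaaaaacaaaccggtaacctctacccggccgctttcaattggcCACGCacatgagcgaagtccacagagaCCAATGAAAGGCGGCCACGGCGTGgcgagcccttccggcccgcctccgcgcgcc
P4hb: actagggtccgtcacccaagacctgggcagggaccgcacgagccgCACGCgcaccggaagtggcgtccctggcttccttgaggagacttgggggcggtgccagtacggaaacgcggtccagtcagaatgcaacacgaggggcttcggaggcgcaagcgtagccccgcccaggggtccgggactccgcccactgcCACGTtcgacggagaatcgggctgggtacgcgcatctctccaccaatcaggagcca
Ero1l: cgcgcgccgctgCACGTccgcaggggaggc
The stress elements of Ero1lb and Pdia6 lie on opposite strands. The other genes called lower, Ero1l and Qsox1 among them, had no such element in their windows. Whether the element goes with the change was not tested.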

How the data were processed

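Total RNA of 12 tumoursphere libraries was sequenced as stranded, single-end mRNA reads. The authors aligned reads with STAR to mm10 and counted 5' ends over the union of exons with qCount of QuasR, and deposited the raw count of each gene. Versions, annotation and the strand setting were not given in the sources used here. Identifiers were matched to GENCODE M21 (18268 of 18278). Genes kept by filterByExpr (count minimum 10; 18176) were tested with limma-voom (limma 3.58.1, edgeR 4.0.16, R 4.3.3) on TMM-scaled counts. Gaps to Ero1l and their SE came from limma on log2 CPM differences, and sums per length (CPM by exon union) by exact permutation. The scripts were tested on simulated data. Alternatives were other scalings and lengths, edgeR, DESeq2 1.42.0, quality weights, a replicate block, no filter and leaving out each library; library totals without LM9 replicate 1 and all alternatives for the PDI pool were added after seeing the data. The 10 genes and the lists were chosen with earlier results of these data known. Besides all 10 genes, upstream factors, markers and the 5 genes most like Ero1l, the 2 largest rises and falls of each companion list were named among genes past the threshold, provided the sign was shared by LM1 and LM9 and the mean reached 1 CPM. Qsox2, Mttp, Calr, Selenof and Txndc11 were named after their values were seen.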

Additional observations from a re-analysis of the deposited data

How the results depend on the processing

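The log2 changes of the 9 genes other than P4hb kept their sign and their call in both lines under every alternative run. The count of the 10 genes called ran from 9 to 10 in LM1 and in LM9 when 1 library was left out. With all libraries 38.1% of all genes were called lower and 43.1% higher in LM1, and 38.0% and 44.3% in LM9. The share was not taken for every library left out or for the replicate block, so nothing particular to these genes is read from these counts. For the difference of the change between the lines, the 0 genes called became 9 with sample quality weights (58.1% of all genes) and 6 with library totals and without LM9 replicate 1 (57.3%), and ranged from 0 to 9 with 1 library left out. Between LM1 and LM9 the 0 called became 7 with DESeq2 (31.8% of all genes), 3 with library totals (28.8%), 10 with quality weights (63.8%) and 7 with library totals and without LM9 replicate 1 (65.5%), and ranged from 0 to 10 with 1 library left out. In both cases the high end came from leaving out LM9 replicate 1. P4hb in LM9 (-0.11) turned to 0.24 with library totals, to 0.034 without LM9 replicate 2 or 3 and to 0.027 with library totals and without LM9 replicate 1, and was called lower at -0.39 with quality weights. The log2 difference of Ero1 per 100 PDI transcripts in LM1 (-4.02) was -3.96 with coding lengths and -3.96 with counts not divided by length. The log2 difference of the PDI pool (-0.38 in LM1, -0.71 in LM9) was -0.15 and -0.36 with library totals and -0.46 in LM9 with library totals and without LM9 replicate 1, alternatives chosen after seeing the data. Same-numbered libraries did not deviate together (r between -0.06 and 0.03), so the numbers do not pair them. A replicate block gave 10 called in LM1, 9 in LM9 and the same calls for the other comparisons of the 10 genes. It was not run for the ratios, the PDI pool or the companion lists. With 3 libraries per group, a p of 0.1 is the least that single-value tests allow.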

Other observations

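Genes that encode upstream factors of the ER stress and hypoxia responses were also measured, with averaged log2 changes in the libraries labelled KO. Atf4, the main factor of the integrated stress response, rose by 1.496 ± 0.10 (limma-voom adjusted p = 4.47e-08), from 217 ± 5.01 CPM in LM1 to 726 ± 5.57 in LM1 Nfib KO. Atf6, the membrane-bound stress sensor, fell by 0.96 ± 0.04, and Hif1a, the hypoxia factor, fell by 1.53 ± 0.07, from 555 ± 33.9 to 172 ± 7.21 CPM in LM1 and from 469 ± 66.8 to 179 ± 9.78 in LM9 (a parental mean of 430 without replicate 1). Exons of Hif1a overlapped those of Gm49321 by 148 bases on the same strand. Epas1, its paralogue, had 1 to 7 reads in the parental libraries and 563 to 640 in the KO libraries.

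The LM9 changes of Xbp1, Ddit3 and Nfib moved with LM9 replicate 1. Xbp1, the spliced effector of the unfolded protein response, changed by -2.08 ± 0.35 in LM1 and -0.98 ± 0.35 in LM9, or -0.40 ± 0.05 (adjusted p = 1.25e-06) without that library. This last value depended on the scaling. With library totals alone Xbp1 had 62.4 and 64.4 CPM in LM9 replicates 2 and 3 and 62.5 to 67.4 CPM in LM9 Nfib KO, which overlap. Ddit3, which encodes CHOP, changed by 0.69 ± 0.19 in LM1 (adjusted p = 0.00503) and 0.13 ± 0.19 in LM9 (adjusted p = 0.518), or -0.17 ± 0.04 without that library. With library totals alone Ddit3 lay between 123 and 201 CPM in LM9 and between 230 and 245 CPM in LM9 Nfib KO. The direction without LM9 replicate 1 thus depended on the scaling. Ddit3 has a pair of identifiers on the same strand, of which the first was used, so its counts are uncertain. Nfib changed by 0.11 ± 0.16 in LM1 (adjusted p = 0.533) and 0.68 ± 0.17 in LM9 (adjusted p = 0.00260), or 0.93 ± 0.07 (adjusted p = 1.14e-09) without LM9 replicate 1.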
